A study of Mus musculus with 6 samples.

Results

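Expression of 9 tight junction genes was examined in epidermal progenitor cells of newborn mice: the claudin genes Cldn1, Cldn3, Cldn4, Cldn7, Cldn12 and Cldn23, the occludin gene Ocln, the scaffold gene Tjp1 and the junctional adhesion molecule gene F11r. They were taken by symbol from the 17025 genes of the deposited expression table, and all 9 were found. The study compared integrin α6-positive cells, sorted by flow cytometry at postnatal day 0, from conditional knockout animals (cKO, genotype K14Cre,Ash2lF/F, 3 libraries) with those from control animals (genotype K14Cre,Ash2lF/+, 3 libraries). Its question is the role of ASH2L, a core subunit of the complexes that methylate lysine 4 of histone H3, in the differentiating skin and its Notch pathway. Both groups carry Cre under the keratin 14 promoter, which is active in basal keratinocytes, and the controls still carry a floxed allele beside a wild-type allele. The labels give no treatment, and they do not say whether a library came from a single animal; the p-values then reflect variation among these libraries, which may be technical.

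The libraries held 31578875 to 36027550 fragments, and levels are given as FPKM, fragment counts scaled for library total and gene length. The level of the targeted gene went against the labels. Ash2l measured 30.9, 29.5 and 22.9 FPKM in the libraries labelled cKO, against 12.4, 18.1 and 15.9 FPKM in those labelled control, without overlap (log2 difference 0.81, SE 0.19, limma adjusted p = 0.0240). The call was kept only without cKO library 3 or control library 2 (largest limma adjusted p = 0.0829). The deposited values are per gene, so whether the floxed part of Ash2l was lost cannot be read from them. Groups are therefore called by their labels, and every direction below rests on them. The column codes hold the letter C for the libraries labelled control and W for those labelled cKO, and the labels do not explain these letters. Whether the labels were exchanged was not tested, and an exchange would turn the sign of every difference below. The basal keratinocyte genes Krt5, Krt14, Trp63 and Itga6 were detected in all 6 libraries and so was the spinous keratin gene Krt10, at 18346 to 36869 FPKM in the libraries labelled cKO against 1693 to 2489 FPKM in those labelled control. Itga6, which encodes the integrin used for sorting, measured 53.6, 53.0 and 19.7 FPKM in the libraries labelled cKO. Those labelled control held 162, 78.8 and 72.0 FPKM of Itga6, without overlap, and it was not called (limma adjusted p = 0.0710). Within the groups, cKO library 3 and control library 1 stood apart: the chi-square per gene between libraries was 14.6 for cKO libraries 1 and 2 but 245.6 and 250.4 against cKO library 3, and 51.1 for control libraries 2 and 3 but 130.4 and 133 against control library 1. Results that rest on these libraries are also given without them. Bulk libraries average over the cells sorted, so fewer cells of a type and less RNA per cell cannot be told apart.

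Tight junctions seal the space between neighbouring epithelial cells. Claudins form the paracellular strands, occludin and its MARVEL-domain relatives sit in the same strands, junctional adhesion molecules lie beside them, and zonula occludens proteins tie the strands to actin beneath the membrane. In the epidermis functional tight junctions are found in the granular layer, while several of the components are also made in the layers below it. Mice without claudin-1 die soon after birth from water loss through the skin.

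Of the 9 genes, Ocln was higher and Cldn4 was lower in the libraries labelled cKO, while Cldn1, the most abundant claudin transcript in every library, was not called. The promoter windows of these 3 genes are shown because they carry the main contrast. They come from RefSeq (GRCm38.p6, another build than the GRCm39 named in the submitters' processing notes) and span 250 bases before to 50 bases after an annotated start. Ocln has 2 annotated starts, and its 2 windows overlap. Capitals mark matches to 6 motifs searched on both strands: the GRHL core AACCNGTT, the SNAI E-box CAGGTG, the RBPJ motif GTGGGAA, the AP-1 motif TGANTCA, the KLF and SP box GGGCGGG, and the TATA box TATAAA.
Ocln, chr13:100552669-100552968, minus strand: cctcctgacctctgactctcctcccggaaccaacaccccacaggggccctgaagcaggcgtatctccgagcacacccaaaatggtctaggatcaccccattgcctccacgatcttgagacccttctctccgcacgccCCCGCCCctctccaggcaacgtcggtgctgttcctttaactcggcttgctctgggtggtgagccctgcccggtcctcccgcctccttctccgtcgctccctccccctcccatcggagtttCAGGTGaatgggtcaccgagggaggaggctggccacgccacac
Ocln, chr13:100552449-100552748, minus strand: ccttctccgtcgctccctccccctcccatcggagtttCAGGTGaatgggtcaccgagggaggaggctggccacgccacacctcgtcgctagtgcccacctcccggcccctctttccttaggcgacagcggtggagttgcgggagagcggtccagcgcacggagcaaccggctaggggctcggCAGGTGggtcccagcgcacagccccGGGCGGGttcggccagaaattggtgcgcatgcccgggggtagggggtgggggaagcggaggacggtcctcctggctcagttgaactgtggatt
Cldn4, chr5:134946885-134947184, minus strand: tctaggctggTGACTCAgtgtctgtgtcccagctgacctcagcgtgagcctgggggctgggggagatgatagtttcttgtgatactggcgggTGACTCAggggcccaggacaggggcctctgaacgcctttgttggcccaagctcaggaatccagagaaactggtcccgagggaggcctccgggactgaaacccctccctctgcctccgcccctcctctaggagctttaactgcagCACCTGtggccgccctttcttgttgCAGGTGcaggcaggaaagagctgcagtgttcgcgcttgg
Cldn1, chr16:26371790-26372089, minus strand: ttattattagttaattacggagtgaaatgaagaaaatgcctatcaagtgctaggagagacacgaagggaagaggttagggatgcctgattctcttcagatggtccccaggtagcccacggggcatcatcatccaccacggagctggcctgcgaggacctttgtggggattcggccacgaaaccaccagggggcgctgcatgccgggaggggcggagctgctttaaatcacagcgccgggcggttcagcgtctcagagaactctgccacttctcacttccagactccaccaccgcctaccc

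The Cldn4 window held 2 AP-1 matches and 2 SNAI E-box matches, and the Ocln windows held E-box and KLF and SP box matches. The Cldn1 window held none of the 6 motifs. No match overlapped another. Of all 32851 promoter windows of this length, 20.2% held the E-box letters, 7.81% the AP-1 letters and 25.6% the KLF and SP letters. The GRHL core (2.09% of all windows), the RBPJ motif (6.38%) and the TATA box (13.6%) had no match in any of the 12 windows found for 8 of the 9 genes. The matches describe letters in a window and no binding was measured.

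Cldn1, whose product is the main sealing claudin of the epidermis, had the highest level of the 9 genes in every library. Its level was 155, 134 and 116 FPKM in the libraries labelled cKO, against 107, 102 and 131 FPKM in those labelled control, and the groups overlapped. The difference, cKO minus control on the log2(FPKM + 1) scale, was 0.25 (SE 0.15, 95% interval -0.11 to 0.61, n = 3 per group). It was not called by limma (adjusted p = 0.287 over 11603 genes). The median of all genes tested lay at -0.17 in this comparison, and Cldn1 stood 0.42 above it. Median-of-ratios scaling moved the difference to 0.47, where it was called (limma adjusted p = 0.0415). Quantile normalization moved it to 0.36, where it was not called (limma adjusted p = 0.1345).

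Cldn4 encodes a claudin that binds Clostridium perfringens enterotoxin. It reached 29.7, 38.9 and 20.0 FPKM in the libraries labelled cKO and 83.0, 62.2 and 57.6 FPKM in those labelled control. Every library labelled cKO lay below every library labelled control. The mean was 29.5 ± 9.45 FPKM for the cKO label and 67.6 ± 13.5 FPKM for the control label (SD, n = 3 each), a log2 difference of -1.20 (SE 0.25, 95% interval -1.78 to -0.62, limma adjusted p = 0.0160). A two-sided exact permutation test over the libraries reached p = 0.1, its lower limit with 3 against 3. The call was lost without control library 1 (-1.04, limma adjusted p = 0.0526) or control library 2 (-1.25, limma adjusted p = 0.0547). It held without any 1 of the other 4 libraries, without control library 1 and cKO library 3 together (-0.80, limma adjusted p = 0.0124) and with median-of-ratios scaling (-0.98, limma adjusted p = 0.0218).

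Cldn12, whose product lacks the PDZ-binding end by which other claudins attach to zonula occludens proteins, was detected at a moderate level in all libraries. Its level was 7.73, 7.45 and 9.37 FPKM in the libraries labelled cKO and 8.31, 11.2 and 10.8 FPKM in those labelled control, with overlap. The log2 difference of -0.27 (SE 0.19, 95% interval -0.70 to 0.16) was not called (limma adjusted p = 0.343). Without control library 1 and cKO library 3 together it was -0.48, and called (limma adjusted p = 0.0369).

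Cldn3, Cldn7 and Cldn23 were close to the detection limit, with means over the 6 libraries of 0.520, 0.480 and 0.605 FPKM, and were not tested because genes under a mean of 1 FPKM were left out. The whole fragments behind the deposited values could be recovered for them. Cldn3, a close relative of Cldn4 and also an enterotoxin receptor, was counted with 12, 6 and 1 fragments in the libraries labelled cKO and with 30, 54 and 26 in those labelled control. These groups did not overlap, at 0.0220 to 0.283 FPKM for the cKO label against 0.628 to 1.29 FPKM for the control label. With the filter lowered to 0.1 FPKM, Cldn3 was called at a log2 difference of -0.71 (limma adjusted p = 0.0419).

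Cldn7, whose product binds EpCAM, was counted with 23, 62 and 31 fragments in the libraries labelled cKO and with 22, 0 and 4 in those labelled control. The groups overlapped, and the count of 0 in control library 2 allows up to 0.0625 FPKM (3 fragments, counting error only). Cldn23, a claudin of less settled function, had 89, 30 and 47 fragments in the libraries labelled cKO and 0, 36 and 26 in those labelled control. These groups overlapped as well, and the 0 in control library 1 allows up to 0.0513 FPKM. With the filter at 0.1 FPKM neither Cldn7 (0.57, limma adjusted p = 0.133) nor Cldn23 (0.48, limma adjusted p = 0.241) was called.

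**Figure D1:**
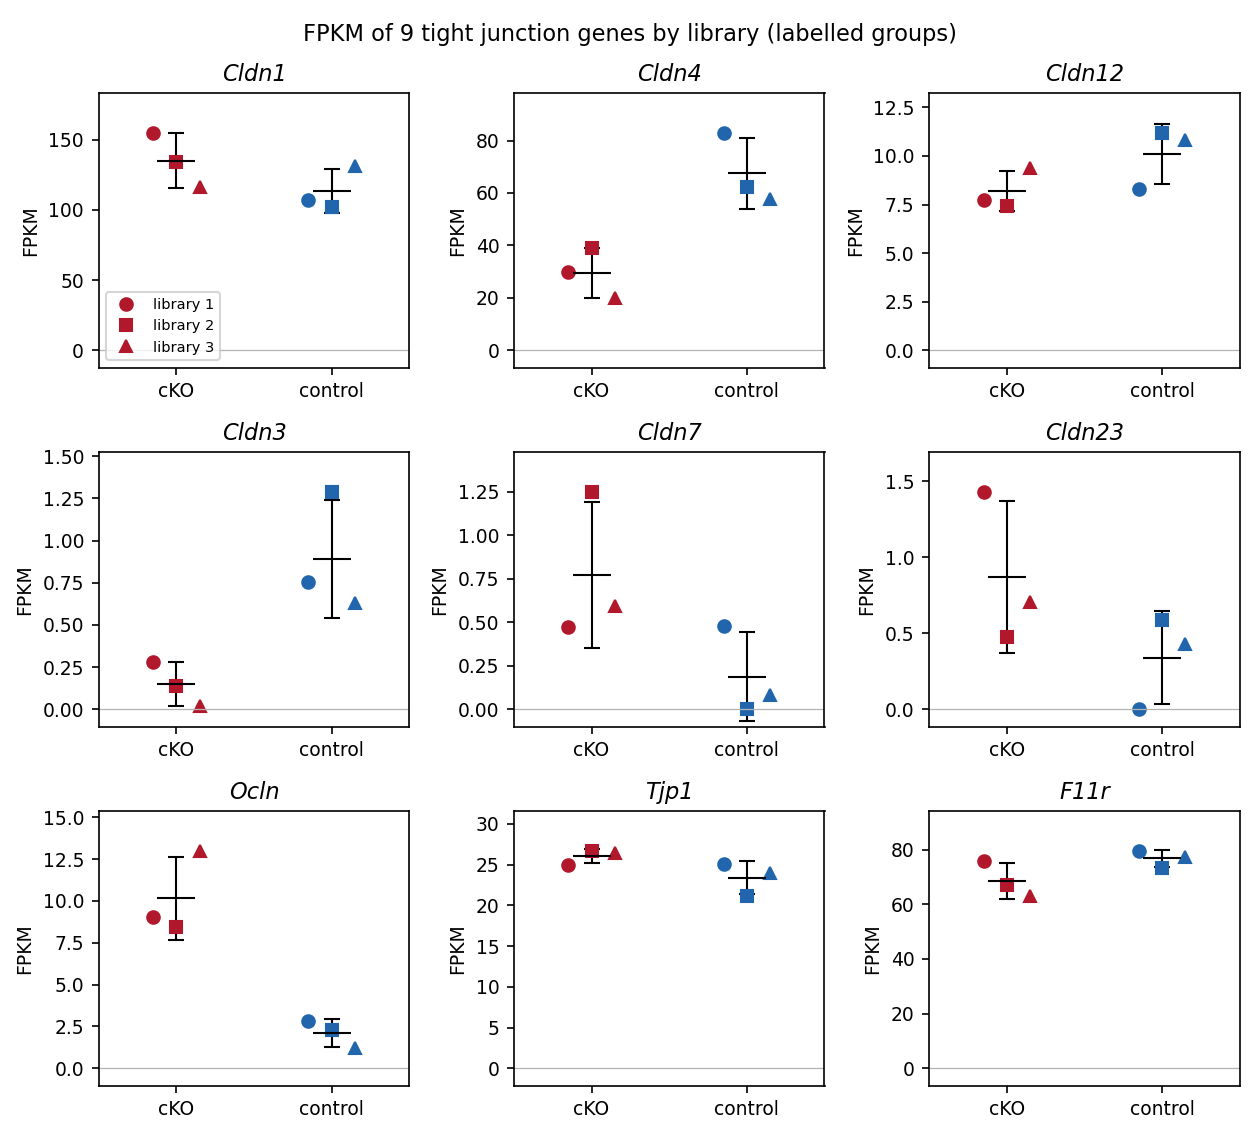
FPKM (linear vertical axes, each panel with its own range) of the 9 genes in the 3 libraries labelled cKO (red) and the 3 labelled control (blue); horizontal marks are means and bars 1 SD, and symbols give the library number. Ocln lies at 8.41 to 13.0 FPKM in the libraries labelled cKO, above all those labelled control, Cldn4 at 20.0 to 38.9 FPKM and Cldn3 lie below all of them, and the other 6 genes overlap.

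The FPKM of the 6 claudin genes add up to 195, 182 and 147 in the libraries labelled cKO, against 199.7, 177 and 200.2 in those labelled control, and these sums overlap. The make-up of the sum differed. Cldn1 made up 79.7, 73.5 and 79.1% of it in the libraries labelled cKO and 53.7, 57.6 and 65.3% in those labelled control. Cldn4 made up 15.3, 21.4 and 13.6% in the libraries labelled cKO, against 41.6, 35.0 and 28.8% in those labelled control. Neither share overlapped between the groups, and a share within a library is the same whatever 1 factor scales the library. Together Cldn1 and Cldn4 took 94.2 ± 1.25% in the libraries labelled cKO and 94.0 ± 1.29% in those labelled control (SD, n = 3 each). Their shares therefore mirror each other and are not separate results, and the FPKM of Cldn1 itself overlapped between the groups. For each FPKM of Cldn1 there were 0.218 ± 0.0639 FPKM of Cldn4 in the libraries labelled cKO and 0.608 ± 0.167 in those labelled control.

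**Figure D2:**
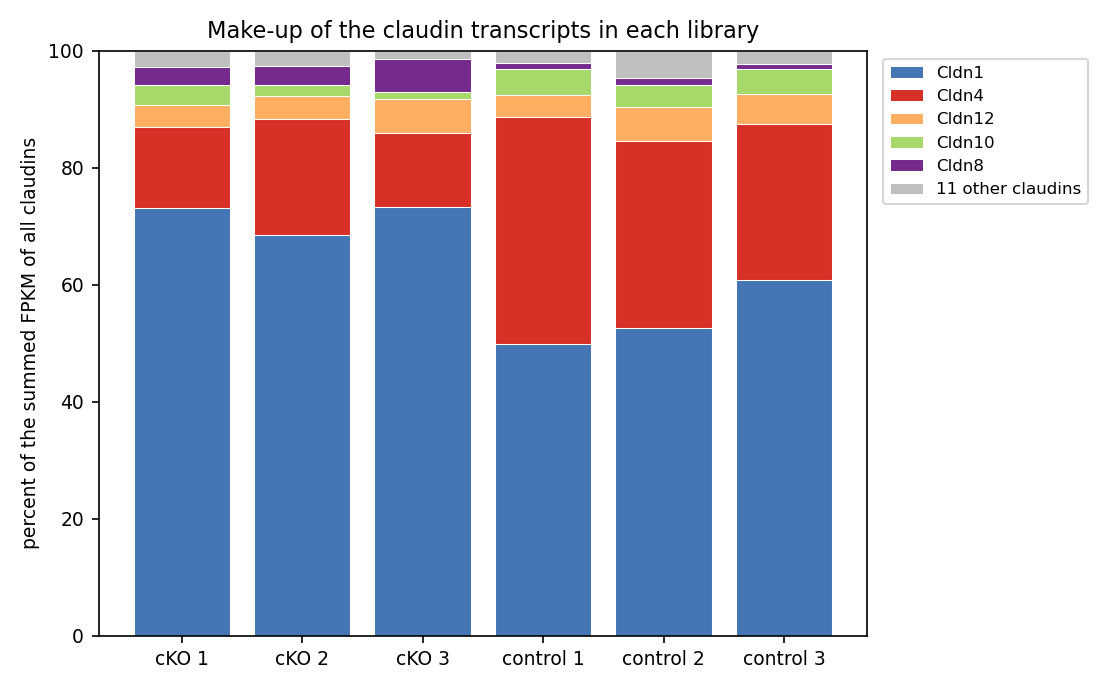
Percent of the summed FPKM of all 16 claudin genes in the table taken by each claudin, as 1 stacked bar per library, with the libraries labelled cKO on the left and those labelled control on the right. Cldn4 takes 12.6 to 19.9% of the bar in the libraries labelled cKO, against 26.8 to 38.7% in those labelled control, while Cldn8 takes 2.99 to 5.56% for the cKO label and 0.734 to 1.26% for the control label.

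Ocln encodes occludin, a MARVEL-domain protein of the strands. It was the member tested with the largest difference, at 9.06, 8.41 and 13.0 FPKM in the libraries labelled cKO against 2.85, 2.26 and 1.20 FPKM in those labelled control. These values rest on 1210 to 1973 fragments in the libraries labelled cKO, against 166 to 380 in those labelled control. The groups did not overlap, and the mean was 4.82 times as high in the libraries labelled cKO (10.1 ± 2.46 FPKM, against 2.10 ± 0.837 FPKM for the control label, SD, n = 3 each). The log2 difference was 1.86 (SE 0.27, 95% interval 1.23 to 2.49, limma adjusted p = 0.00449). It was called without any 1 library (1.63 to 2.03, largest limma adjusted p = 0.0232), and without control library 1 and cKO library 3 together (1.86, limma adjusted p = 0.0043). A two-sided exact permutation test over the libraries again reached its lower limit of p = 0.1.

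Tjp1 and F11r overlapped between the groups and were not called. Tjp1 encodes ZO-1, the scaffold that binds claudins, occludin and actin. Its level was 25.0, 26.7 and 26.4 FPKM in the libraries labelled cKO and 25.1, 21.1 and 24.0 FPKM in those labelled control. The log2 difference was 0.15 (SE 0.14, 95% interval -0.16 to 0.46, limma adjusted p = 0.461). F11r encodes JAM-A, an adhesion molecule beside the strands. It was at 75.9, 67.0 and 62.9 FPKM in the libraries labelled cKO, against 79.6, 73.3 and 77.4 FPKM in those labelled control. Its log2 difference of -0.16 (SE 0.12, 95% interval -0.45 to 0.12, limma adjusted p = 0.379) lies at the median of all genes, and turned to 0.059 with median-of-ratios scaling. A p that misses the threshold does not show that levels were equal, and the intervals leave room for a difference of up to 0.46 for Tjp1 and down to -0.45 for F11r. For each FPKM of Tjp1 there were 0.389 ± 0.0909 FPKM of Ocln in the libraries labelled cKO and 0.0902 ± 0.0351 in those labelled control (SD, n = 3 each).

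Ordered by mean level in the libraries labelled cKO, the genes ran Cldn1, F11r, Cldn4, Tjp1, Ocln, Cldn12, Cldn23, Cldn7 and Cldn3. In the libraries labelled control the order was Cldn1, F11r, Cldn4, Tjp1, Cldn12, Ocln, Cldn3, Cldn23 and Cldn7. Some neighbours in these orders cannot be separated by their spread. Cldn4 and Tjp1 overlapped in the libraries labelled cKO, as did Ocln and Cldn12, whereas F11r and Cldn4 overlapped in those labelled control. Cldn23 and Cldn7 overlapped in both groups. Ocln and Cldn12 did not overlap in the libraries labelled control, where Cldn12 was the higher.

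In counts, 1 of the 6 members tested was higher (Ocln) and 1 was lower (Cldn4), against 5.87% of all 11603 genes called higher, 13.6% called lower and 19.5% called either way. Groups did not overlap for 1 of the 6 with the libraries labelled cKO above (12.0% of all genes tested) and for 1 with them below (30.9%), against 42.9% of all genes for both directions. The median difference of the 6 was -0.0063, against -0.17 for all genes. With so few members these counts are close to the background, and nothing is read from them about the members as a set.

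The other claudin and tight junction genes went both ways too. Of 57 further symbols listed, of which Mpp5 and Pals1 name the same gene, 48 were in the table and 38 were tested, of which 6 were higher and 6 were lower in the libraries labelled cKO, with a median difference of -0.099. The background for these counts is the 5.87% and 13.6% of all genes. The 6 higher became 3 without cKO library 1 and 2 without control library 3. The 6 lower became 2 without cKO library 2 or control library 2 and 3 without any 1 of the other 4 libraries. Without control library 1 and cKO library 3 together, 11 were higher and 7 lower. The balance also moved with the scaling of the libraries: 9 were higher and 4 lower with median-of-ratios scaling.

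Among the claudins outside the 9, Cldn8 was higher in the libraries labelled cKO. This claudin of tight epithelia measured 6.36, 6.37 and 8.83 FPKM in the libraries labelled cKO, against 2.34, 2.45 and 1.58 FPKM in those labelled control. The groups did not overlap (log2 difference 1.39, SE 0.22, limma adjusted p = 0.00609), and the call held without any 1 library. Cldn10 measured 7.49, 3.76 and 1.94 FPKM in the libraries labelled cKO against 9.42, 7.43 and 9.46 FPKM in those labelled control, overlapped and was not called (-0.98, SE 0.36, limma adjusted p = 0.0967). The claudin-domain gene Cldnd1 was at -0.43 (SE 0.13, limma adjusted p = 0.0507), just outside the threshold.

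Tjp3, which encodes ZO-3, a relative of the ZO-1 scaffold, was higher. It measured 10.6, 8.11 and 10.7 FPKM for the cKO label, against 4.06, 2.93 and 2.92 FPKM for the control label. The groups did not overlap (log2 difference 1.33, SE 0.20, limma adjusted p = 0.0054), while those of Tjp1 did, and the Tjp3 call held without any 1 library.

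The 2 genes of the MARVEL family listed with occludin that were called, Marveld2 and Marveld3, were both higher. Marveld2 encodes tricellulin, which sits where the corners of cells meet, and Lsr encodes angulin-1, which brings tricellulin there. Marveld2 was at 4.19, 4.85 and 9.06 FPKM in the libraries labelled cKO against 2.29, 1.05 and 1.08 FPKM in those labelled control (1.48, SE 0.32, limma adjusted p = 0.0182). Lsr was at 49.4, 46.0 and 49.8 FPKM in the libraries labelled cKO against 29.9, 33.6 and 31.0 FPKM in those labelled control (0.60, SE 0.12, limma adjusted p = 0.0145). Groups overlapped for neither. Marveld3 (1.12, SE 0.27, limma adjusted p = 0.0259) and the plaque gene Cgn, which encodes cingulin (1.27, SE 0.33, limma adjusted p = 0.0342), were also higher. Marveld1 was at 0.034 (SE 0.24, limma adjusted p = 0.939). The call of Marveld2 was lost without control library 2 or control library 3 and that of Lsr without cKO library 1 or control library 3 (limma adjusted p up to 0.0739 and 0.0612). Marveld3 kept its call only without cKO library 3 or control library 1, and Cgn only without control library 2.

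The lower genes included Sympk (-0.74, SE 0.13, limma adjusted p = 0.0090), whose product symplekin also belongs to the RNA 3' end machinery, the scaffold gene Magi3 (-0.99, SE 0.23, limma adjusted p = 0.0249), Esam (-1.32, SE 0.34, limma adjusted p = 0.0332), Mpp5, which encodes the polarity protein PALS1 (-0.61, SE 0.17, limma adjusted p = 0.0444), and Arhgef2, which encodes GEF-H1 (-0.75, SE 0.22, limma adjusted p = 0.0496). The call of Sympk held without any 1 library. That of Mpp5 was lost whichever library was left out, that of Magi3 held only without cKO library 3, that of Esam only without control library 3 and that of Arhgef2 only without control library 1. Under scaling by the median of ratios Mpp5 (-0.40, limma adjusted p = 0.110) and Arhgef2 (-0.57, limma adjusted p = 0.0862) were not called. Esam measured 0.128, 0.0951 and 0.105 FPKM in the libraries labelled cKO against 3.31, 1.80 and 0.757 FPKM in those labelled control. Its mean over the 6 libraries was 1.03 FPKM, so it passed the filter of 1 FPKM only through the libraries labelled control. Its call and its place among the 6 lower genes therefore lean on that filter. Esam is known from endothelial cells. Of their markers, Cdh5 was at 0 in 4 of the 6 libraries. Kdr (0.906 to 5.56 FPKM) and Egfl7 (1.48 to 3.61 FPKM) were detected in all libraries and overlapped between the groups. Tek (at most 0.0849 FPKM for the cKO label, 0.481 to 1.88 FPKM for the control label) and Pecam1 were lower without overlap, but too low to be tested. The 9 endothelial markers, Esam and Cldn5 among them, of which Esam was the 1 called of 4 tested, summed to 3.22 to 10.3 FPKM in the libraries labelled cKO, against 8.92 to 12.0 FPKM in those labelled control, and their part in the Esam difference was not tested. Ybx3, 1 of the most abundant genes of the list, was not called (0.081, SE 0.10, limma adjusted p = 0.615).

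**Figure D3:**
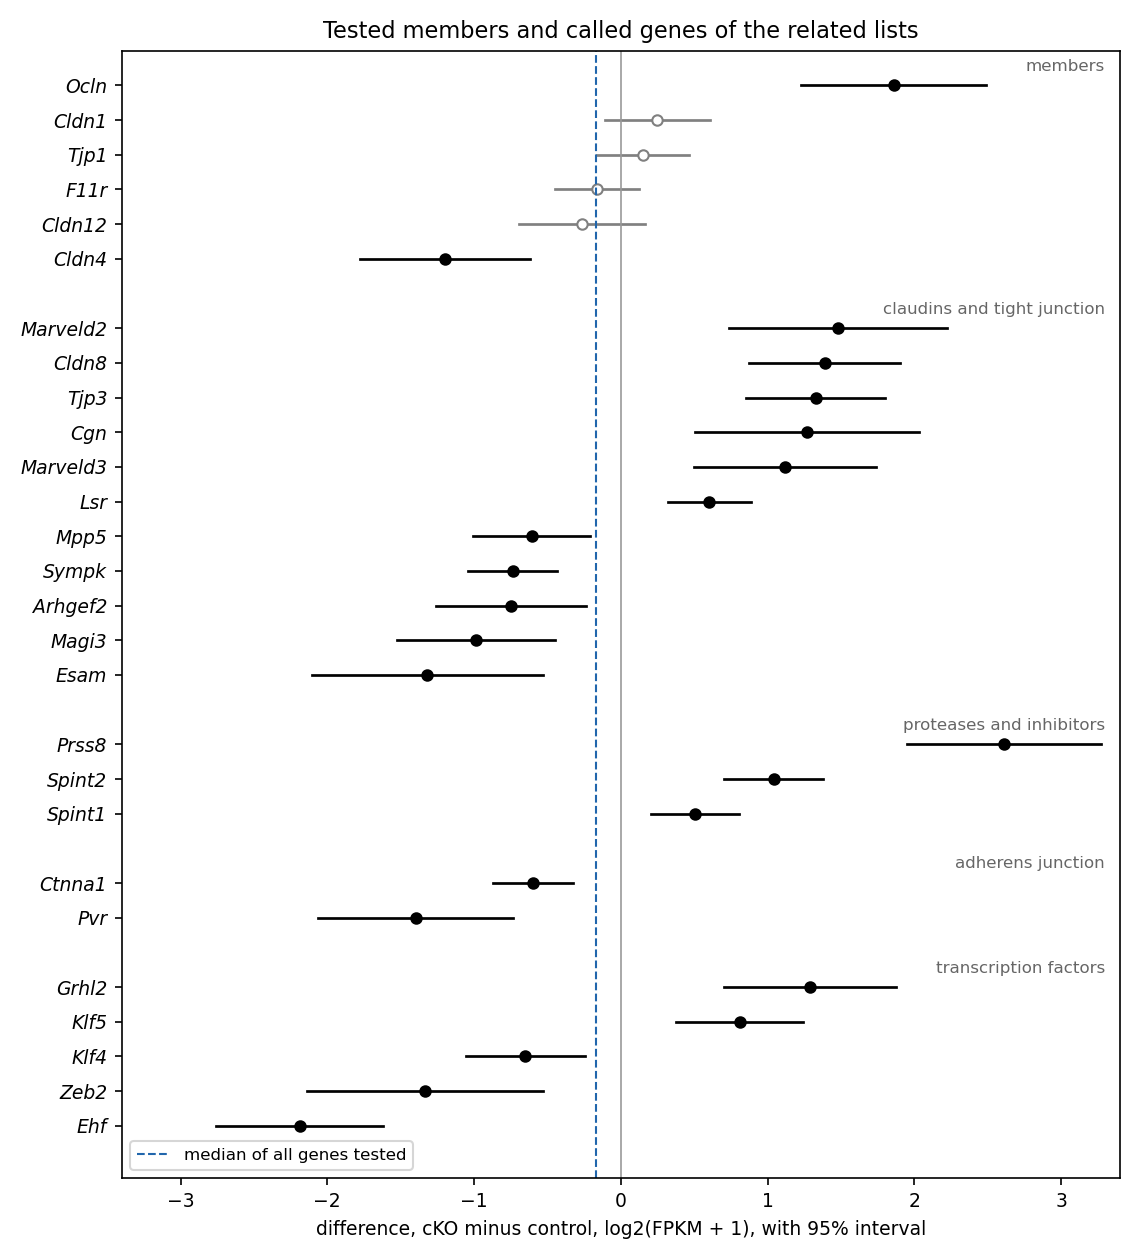
Differences, cKO minus control on the log2(FPKM + 1) scale with 95% intervals, of the 6 members tested and of called genes of the related lists; open grey circles are not called, filled black circles are, and the dashed line is the median of all genes tested (-0.17). Ocln (1.86) and Cldn4 (-1.20) stand apart from the other 4 members, and Prss8 (2.61) and Ehf (-2.19) have the widest differences among the related genes.

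Of 4 genes listed for the serine protease system that acts on epidermal tight junctions, 3 were higher, against 5.87% of all genes tested. With 4 genes, nothing is read from this count about the system. Prss8 encodes prostasin, which mice need for a working epidermal tight junction barrier. Its level was 10.3, 9.25 and 18.2 FPKM in the libraries labelled cKO, against 1.61, 0.932 and 0.939 FPKM in those labelled control, without overlap (2.61, SE 0.28, limma adjusted p = 0.00179). The membrane-bound inhibitors of this system were higher as well: Spint2 (1.04, SE 0.14, limma adjusted p = 0.0037) and Spint1 (0.50, SE 0.13, limma adjusted p = 0.0332). The Spint1 call was kept only without cKO library 3. St14, which encodes the protease matriptase, was not called (-0.28, SE 0.15, limma adjusted p = 0.225). It lay below without overlap, at 17.0, 14.8 and 18.2 FPKM for the cKO label against 18.9, 20.1 and 22.5 FPKM for the control label. Exons of Prss8 overlap those of Kat8 on the opposite strand in the GRCm38 annotation, and those of Cldn3 overlap Wbscr25; whether strand was used in counting is not given in the sources used here, so these reads are uncertain.

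Adherens junction genes, which hold epithelial cells together below the tight junction, had none higher and 2 lower of 12 tested. Of all genes tested, 5.87% were higher and 13.6% lower. Ctnna1, which encodes α-catenin, averaged 82.9 ± 1.93 FPKM in the libraries labelled cKO and 126 ± 11.4 FPKM in those labelled control (-0.60, SE 0.12, limma adjusted p = 0.0127), and was not called with median-of-ratios scaling (-0.38, limma adjusted p = 0.0971). Pvr, a nectin-like receptor gene, measured 1.62, 1.20 and 2.06 FPKM in the libraries labelled cKO against 8.87, 5.36 and 4.13 FPKM in those labelled control (-1.40, SE 0.29, limma adjusted p = 0.0146). Without cKO library 1 the call of Ctnna1 was lost and without cKO library 2 that of Pvr (limma adjusted p = 0.0509 and 0.0524). The E-cadherin gene Cdh1 (-0.093, SE 0.12, limma adjusted p = 0.616) and the β-catenin gene Ctnnb1 (-0.12, SE 0.14, limma adjusted p = 0.586), the most abundant of the list, were not called.

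Of 14 transcription factor genes tested that act on epithelial junctions, 2 were higher and 3 lower, against 5.87% and 13.6% of all genes tested. Grhl2, whose product is known to control Cldn4 and Cdh1 in mouse epithelia, averaged 14.1 ± 1.61 FPKM in the libraries labelled cKO and 5.40 ± 2.19 FPKM in those labelled control (1.29, SE 0.25, limma adjusted p = 0.013). Its call was lost without control library 2 or 3 (largest limma adjusted p = 0.0515). Klf5 was higher too (0.81, SE 0.19, limma adjusted p = 0.0229), and its call too was lost without control library 2 or 3. Ehf, an epithelial ETS factor gene, was lower at 1.36, 0.769 and 2.06 FPKM in the libraries labelled cKO against 8.64, 10.2 and 10.2 FPKM in those labelled control (-2.19, SE 0.24, limma adjusted p = 0.00193), and was called without any 1 library. Zeb2, a repressor of epithelial genes (-1.34, SE 0.35, limma adjusted p = 0.0342), lost its call when any 1 library labelled control was left out. Klf4, which drives barrier formation (-0.65, SE 0.18, limma adjusted p = 0.0378), lost its call whichever library was left out, and with median-of-ratios scaling (-0.43, limma adjusted p = 0.113). Grhl1 (0.31, SE 0.18, limma adjusted p = 0.265) and Trp63 (0.40, SE 0.23, limma adjusted p = 0.262) were not called.

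Among the 73 other tested genes of these lists, the gene whose log2(FPKM + 1) followed a member most closely over the 6 libraries was Cldn8 for Ocln (Pearson's r = 0.994), Magi3 for Cldn4 (r = 0.958), Snai1 for Cldn1 (r = 0.985), Cldn10 for F11r (r = 0.983), Marveld3 for Tjp1 (r = 0.905) and St14 for Cldn12 (r = 0.863). These values describe 6 points that share the difference between the groups and the scaling of the libraries.

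Neighbours on the chromosome were looked up in the GRCm38 annotation. The protein-coding gene next to Ocln on 1 side is Marveld2, which was higher like Ocln, and on the other side Gtf2h2, which was not called (-0.39, SE 0.15, limma adjusted p = 0.111). Cldn3 and Cldn4 lie next to each other, and for both of them every library labelled cKO was below every library labelled control. Of all genes tested, 30.9% lay below in this way and 5.87% were called higher, so nothing is read from these pairs about their loci. Cldn3 rests on 1 to 12 fragments in the libraries labelled cKO and was not tested. The outer neighbours of Cldn3 and Cldn4, Abhd11 (-0.36, SE 0.17, limma adjusted p = 0.165) and Mettl27 (-0.19, SE 0.22, limma adjusted p = 0.592), were not called. Of the tested neighbours of the other members, none was called.

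Markers of keratinocyte layers and of other cells were compared as well. Sums of the basal, fibroblast, endothelial and immune lists overlapped between the groups. The background for the counts is 5.87% of all genes tested called higher and 13.6% called lower. Of 8 spinous markers 5 were higher, and their summed level was 36330 to 70090 FPKM in the libraries labelled cKO against 5023 to 6987 FPKM in those labelled control. Of 7 granular markers tested 2 were higher (Flg and Tgm3) and 1 lower (Tgm1). All 9 listed summed to 110.1 to 189 FPKM in the libraries labelled cKO against 58.2 to 105 FPKM in those labelled control. Casp14 weighs heavily in this sum, at 49.9 to 101 FPKM for the cKO label against 19.3 to 54.1 FPKM for the control label. It overlapped between the groups and was not called (limma adjusted p = 0.191). Of 8 basal markers 1 was higher (Krt15) and 2 lower (Itgb4 and Itgb1), with a median difference of -0.58. The 8 summed to 8075 to 10470 FPKM in the libraries labelled cKO against 5021 to 8702 FPKM in those labelled control. Krt5, at 2249 to 4876 FPKM over all libraries, weighs heavily in this sum. So does Krt15, at 2265 to 3681 FPKM for the cKO label against 422 to 754 FPKM for the control label. Itga6, Itgb1 and Itgb4 lay below without overlap, while Krt5, Krt14, Col17a1 and Trp63 overlapped, so the sum does not stand for the single genes. Markers of other states and cells were tested in the same way. All 8 melanocyte markers were lower, at a sum of 170.1 to 366 FPKM in the libraries labelled cKO against 2834 to 3229 FPKM in those labelled control. Of 5 stress keratinocyte markers 4 were lower, while Krt17 overlapped between the groups and was not called. All 5 summed to 1917 to 2492 FPKM in the libraries labelled cKO against 3719 to 4977 FPKM in those labelled control. Krt17 alone gave 1460 to 2175 FPKM of this sum for the cKO label and 1323 to 1659 FPKM for the control label. Fibroblast markers, none of 7 called, summed to 147 to 441 FPKM in the libraries labelled cKO against 95.4 to 339 FPKM in those labelled control. Of 5 simple epithelial and Merkel cell markers, 1 was lower, and of 2 Schwann cell markers tested 1, Sox10, which is also in the melanocyte list. Schwann cell markers summed to 6.88 to 18.7 FPKM in the libraries labelled cKO against 74.3 to 128 FPKM in those labelled control, and simple epithelial and Merkel cell markers to 9.87 to 11.5 FPKM in the libraries labelled cKO against 14.5 to 24.6 FPKM in those labelled control. Immune markers, with 1 tested and none called, summed to at most 4.46 FPKM in the libraries labelled cKO and 5.35 FPKM in those labelled control. No marker on these lists that was in the table was at 0 in all libraries. Their part in the differences of Ocln, Cldn4 and the other tight junction genes was not tested.

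**Figure D4:**
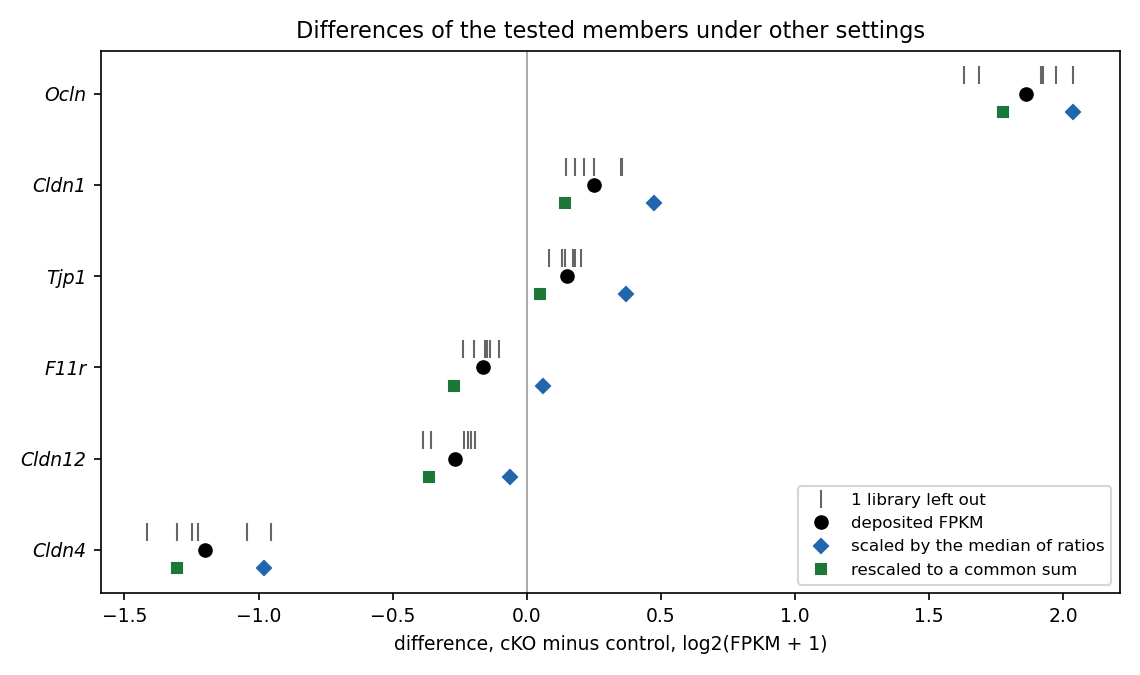
Differences, cKO minus control on the log2(FPKM + 1) scale, of the 6 members tested: as deposited (black circles), after scaling by the median of ratios (blue diamonds), after rescaling to a common sum (green squares) and with 1 library left out (grey ticks). Ocln stays between 1.63 and 2.04 and Cldn4 between -1.42 and -0.95 across the points shown, while F11r crosses 0.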

How the data were processed

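RNA-seq libraries, 3 labelled cKO and 3 labelled control, were compared. The authors deposited their values as a single table named as FPKM. Named in the submitters' processing notes are fastp, HISAT2, HTSeq and the build GRCm39. No source used here gives the annotation release, the gene filter or the use of strand. Low values were whole multiples of 1 fragment, and whole fragments were recovered for 17024 of 17025 genes (relative tolerance 1e-06). No pair of libraries of a group differed by as little as sampling noise (smallest chi-square per gene 14.6). Intervals and limits from counts cover counting error only.

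The 11603 genes whose mean over all libraries reached 1 FPKM entered a limma fit (version 3.58.1, R 4.3.3) of log2(FPKM + 1) on group alone, with trended variance. This step was tested on simulated data. The pseudocount of 1 understates the change of low genes. Adjusted p-values are Benjamini-Hochberg values over all genes tested, called under 0.05. Exact permutation tests used scipy 1.17.1, and figures matplotlib 3.10.9. The members, lists and tests were chosen with earlier results of these data known. Named were all members, every called gene of the related lists, the 2 most abundant others of each list, the gene most like each member and, after their values were seen, Marveld1 and the chromosomal neighbours. Of the genes so named, 2 are counted but not reported here. Alternatives covered pseudocounts, filters, scalings, variance settings, a replicate block, thresholds, limma-voom on recovered fragments and each library left out. Limma-voom with median-of-ratios scaling and a fit on 4 libraries were chosen after seeing the data. Promoter windows are RefSeq's, GRCm38.p6.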

Additional observations from a re-analysis of the deposited data

How the results depend on the processing

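The direction and call of Ocln and the direction of Cldn4 were kept under every alternative run. Without 1 library, Cldn4 ranged from -1.42 to -0.95 (-0.80 without control library 1 and cKO library 3 together), and at a threshold of 0.01 it (-1.20) was not called. Cldn1 was called with median-of-ratios scaling (0.47). It was not called with that scaling and limma-voom on recovered fragments (0.45, limma-voom adjusted p = 0.0528). Quantile normalization did not give a call either (0.36, limma adjusted p = 0.1345). Cldn12 ranged from -0.39 to -0.19 without 1 library, and was called with array weights (-0.43) and on those 4 libraries (-0.48), a fit chosen after seeing the data. F11r turned to 0.059 with median-of-ratios scaling and to 0.037 with that scaling and limma-voom on recovered fragments; it was not called in either. Members called higher became 2 with median-of-ratios scaling, and members called lower became 2 with no filter, with the filter at 0.1 FPKM, with array weights and on the 4 libraries. They became 0 at a threshold of 0.01 and were 0 to 1 without 1 library. Cldn4's share of the claudin sum differed by -18.4 percentage points, by -13.0 in whole fragments; that of Cldn12 (-0.46) ranged from -1.25 to 0.044 without 1 library, above 0 only without control library 2.

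Genes called higher (681) and lower (1576) became 1044 and 1001 with median-of-ratios scaling, which moved the median of all genes to 0.03; 1034 were lower with limma-voom scaled that way, and 1028 higher after quantile normalization. Array weights gave 1423 and 2831, a threshold of 0.01 gave 265 and 506, a threshold of 0.1 gave 2407 lower, the 4 libraries gave 1174 and 2402, and leaving out 1 library gave 390 to 715 and 712 to 1448. Other claudin and tight junction genes called higher (6) became 3 with the filter at 5 FPKM, 10 with array weights, 11 on the 4 libraries and 2 at a threshold of 0.01, and 2 to 6 without 1 library. Those called lower (6) became 3 after quantile normalization, 2 at a threshold of 0.01, 2 to 3 without 1 library and 7 on the 4 libraries. With median-of-ratios scaling 9 of these genes were higher and 4 lower, and after quantile normalization 9 were higher. The cause of these shifts was not tested.

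Same-numbered libraries did not deviate together (correlations of -0.307, 0.0798 and -0.261), and the main fit did not pair them. With 3 libraries per group, and cKO library 3 and control library 1 standing apart, these correlations cannot decide whether libraries were paired. With the replicate block 432 genes were higher and 893 lower, 2 other claudin and tight junction genes were called each way, and Ocln and Cldn4 kept their calls. For genes near 1 FPKM, and for Cldn3, Cldn7 and Cldn23, values rest on few fragments. The differences of these 3 genes grew with smaller pseudocounts, to -2.94, 3.21 and 2.53 at 0.01.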
